A study of Mus musculus with 12 samples.

Results

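The cells described here are the cycling crypt cells of mouse small intestinal organoids, chosen by their own transcripts. Among the 11911 cells that carried a single hashtag and passed the limits on depth and mitochondrial reads, 5214 (43.77%) were kept. Each had, per 10000 transcript counts (UMIs, unique molecular identifiers), at least 3 of the proliferation genes Mki67 and Top2a together and fewer than 5 of the enterocyte gene Fabp1. Cells with 10 or more UMIs of the goblet genes Fcgbp, Tff3, Muc2 and Agr2, 50 or more of the Paneth genes Defa17, Defa24, Defa30 and Lyz1, or 10 or more of the endocrine genes Chga and Chgb were left out. The 13 genes of this rule are therefore not findings. The organoids came from wild type BALB/c mice, and every group was cultured for 4 days. Control organoids grew alone. The Treg group was cultured with 100000 CD25high FoxP3-GFP+ T cells per well, sorted from spleens of the allogeneic strain C57BL/6 and stimulated with 30 U/ml IL-2 and CD3/CD28 beads, in wells tilted so that T cells and organoids did not touch. A further 3 groups had the same T cells with an antibody at 10 µg/ml, one that blocks IFNγ (anti-IFNγ), one that blocks the receptor of IL-10 (anti-IL-10R), or both. The last group received no T cells but 0.25 ng/ml recombinant IFNγ and 10 ng/ml recombinant IL-10 (rIFNγ + rIL-10). The cells of each group were stained with a hashtag antibody, live EpCAM+ cells were sorted, and the 6 groups were sequenced as 1 pool in each of 3 replicates, which the labels call biological without saying whether the organoids came from different mice.

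Transit amplifying cells are the daughters of crypt base stem cells. They divide several times on their way up the crypt before they become absorptive or secretory cells, so most of the cell output of the intestine passes through them. IFNγ binds a receptor of the chains Ifngr1 and Ifngr2 and signals through the kinases Jak1 and Jak2 to promoters with a GAS motif, among them that of the transcription factor Irf1. In turn Ciita, the master switch of MHC class II, and Nlrc5, its class I counterpart, raise antigen presentation, and epithelial cells can present antigen to CD4+ T cells in this way. IL-10 signals through Il10ra and Il10rb to Stat3.

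The name cycling crypt cells was compared with genes that the rule did not use. In control organoids Cenpf, a kinetochore gene of mitosis, was at 238 CPM (counts scaled to library size, expressed as CPM) in the cycling crypt cells and at 44.9 CPM in Fabp1-low cells below the cycling threshold. In cycling cells with high Fabp1 it was at 204 CPM. Cell cycle genes vary with the Mki67 and Top2a of the rule, so a gap at that threshold is no separate support for the name. Olfm4, a crypt base marker, was at 1243 CPM in the cycling crypt cells, 1657 CPM in the Fabp1-low cells below the threshold and 47.3 CPM in cycling cells with high Fabp1. Lgr5, the stem cell receptor, had the same order at 68.0, 84.3 and 17.3 CPM. Rrm2, a subunit of ribonucleotide reductase, was at 82.0 CPM in the cycling crypt cells, 109.6 CPM in Fabp1-high cycling cells and 46.8 CPM below the threshold. The cells therefore carry crypt and cycle transcripts together. Since Lgr5 and Olfm4 are among these, the rule does not separate transit amplifying cells from cycling stem cells. The rule cuts a gradient. The nearest cells on either side of the cycling threshold were at 3.003 and 2.999 per 10000 UMIs, and 230 cells inside it and 228 outside lay within 0.5 of it. For Fabp1 the nearest cells were at 4.993 and 5.001, and 61 inside and 54 outside lay within 0.5.

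Depth per cell was high, and the summed depth varied with the number of cells. Each group and replicate held between 116 and 482 cycling crypt cells, and the sum of their UMIs was between 6288406 and 24039913. The median cell of a group had between 51640.0 and 54540.0 UMIs, averaged over replicates. Replicates 1 and 2 were each sequenced in a pair of libraries and replicate 3 in 1, and all 6 groups shared each library, so RNA set free in the pool was common to them. A pair of libraries shared at most 5 cell barcodes. Of the cycling crypt cells 216 (4.14%) had a high doublet score and were kept.

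A few cells went against this name. In the Treg + anti-IL-10R group 4 of the 965 cells, 2 each in replicates 2 and 3, held between 54 and 117 UMIs of the 9 genes Cd3d, Cd3e, Cd3g, Ptprc, Il2ra, Cd2, Trac, Trbc1 and Trbc2. Together these cells had 352 such UMIs, 1 Epcam UMI and no Cd74 UMI. Another 11 cells of the 5214 held 1 UMI of these 9 genes each and between 79 and 141 Epcam UMIs. The summed level of a wider list of 17 T cell genes, of which Ctla4 had the most UMIs and Cd8a and Ifng none, was 14.0 CPM ± 12.5 (SD, n = 3) in this group and between 1.97 and 3.08 CPM in the other group means. The counts of called genes, the shares and the main fold changes of this group are given with and without the 4 cells, and the counts over gene lists with them only. Genes of the myeloid and B cell list summed to 2.53 CPM or less and those of the stromal and endothelial list to 0.289 CPM or less in each group mean.

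No difference in the share of cycling crypt cells passed its test. In controls it was 47.5%, 44.5% and 33.6% in replicates 1 to 3, and with Treg cells 47.8%, 39.8% and 37.4%. The rIFNγ + rIL-10 group was at 30.2%, 43.8% and 36.6%. Replicate 1 is the low one there, and both of its libraries had the same order, at 30.9% and 29.4% against 50.3% and 44.2% in controls. The mean difference from control was -5.00 percentage points for the cytokines (exact permutation test, two-sided, p = 0.4, adjusted p = 1.0), and 1.12 points without replicate 1, and between -0.216 and 3.69 points for the groups with Treg cells (p between 0.5 and 1.0, adjusted p = 1.0). With 3 against 3 replicates no such test can go below 0.1. Within replicates the share was above control in 3 of 3 with anti-IFNγ, by 3.06, 3.71 and 4.30 points, and with anti-IL-10R, by 3.35, 0.221 and 6.04 points (paired exact permutation test, p = 0.25 for each, the smallest that 3 pairs allow). Without the 4 T cell-bearing cells the mean difference with anti-IL-10R was 2.95 in place of 3.2 points. These are shares of captured cells, and fewer cells of a kind cannot be told apart from more of the others.

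More of the cells leaned to G2/M than to S phase, and the rule itself used Mki67 and Top2a, which are highest there. The G2/M-leaning share was 83.0%, 81.4% and 73.3% in controls and 63.4%, 70.8% and 74.6% with rIFNγ + rIL-10. Cytokine cells were lower in replicates 1 and 2 and level in replicate 3, a mean difference of -9.66 points (exact permutation test, p = 0.2, adjusted p = 0.875). The 3 cytokine replicates overlap the controls and lie below every replicate of the 4 groups with Treg cells, the lowest of which was at 75.2%, a difference that was not tested. In the groups with Treg cells the mean share was between 77.5% and 81.8%, and the difference from control with anti-IL-10R was -1.66 points, or -1.40 without the 4 T cell-bearing cells.

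**Figure D1:**
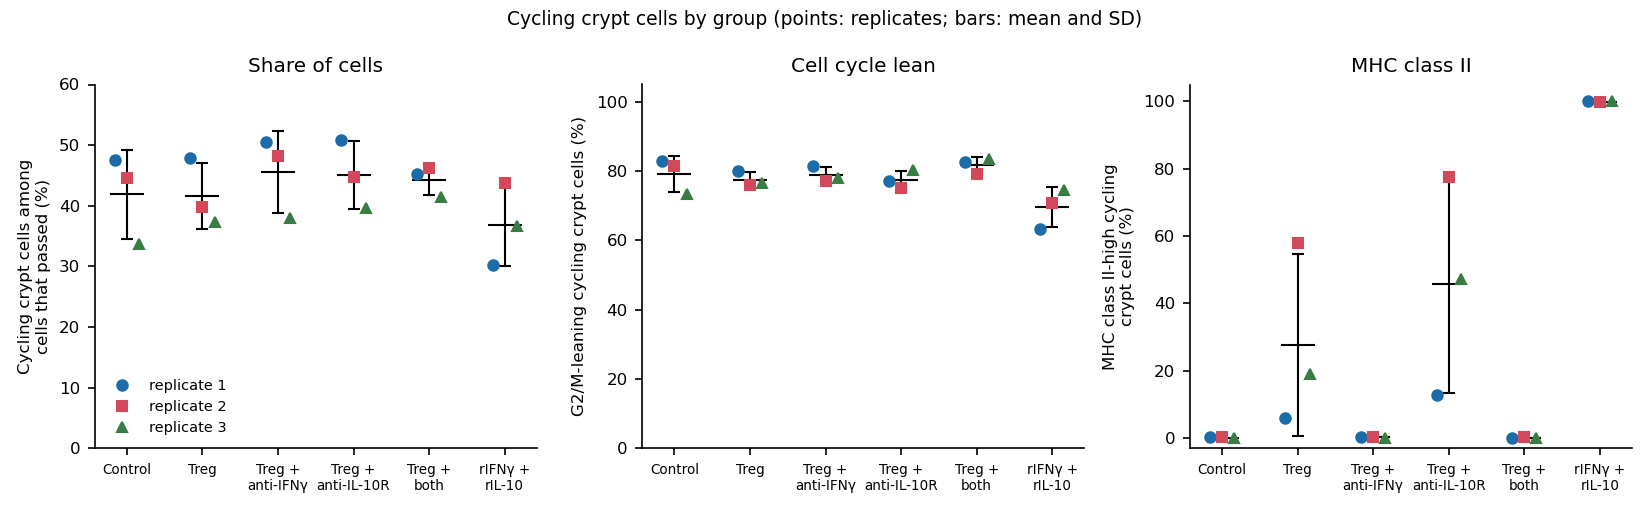
Shares per replicate (points) with the mean and SD (bars) in the 6 groups: cycling crypt cells among the cells that passed the limits (left, %), those that lean to G2/M (middle, %) and those high in MHC class II (right, %). The share of cycling crypt cells overlaps between all groups and the G2/M-leaning share of the cytokine group overlaps that of control, while class II-high cells made up 99.75% or more of the cytokine group and 0.415% or less of the control and anti-IFNγ groups.

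To show what the T cells and cytokines did to gene expression, the UMIs of the cycling crypt cells were summed per group and replicate, and 13286 genes were tested in one fit with the replicate as a block. A gene was called at an adjusted p below 0.05. The rIFNγ + rIL-10 group moved by far the most genes of the 5 comparisons with control: 2158 genes rose (16.2% of those tested) and 1792 fell (13.5%), 7 of them genes of the rule. The steepest rises among genes at 20 CPM or more were Iigp1, an interferon-inducible GTPase that attacks the vacuoles of intracellular parasites, with a log2 fold change of 9.57 ± 0.89 (SE), the class II invariant chain Cd74 at 9.32 ± 0.73, and the class II chains H2-Eb1, H2-Aa and H2-Ab1 at 8.86, 8.76 and 8.54. Igtp, the immunoproteasome subunits Psmb8 and Psmb9, Irf1 and the class II peptide loader H2-DMa followed at 7.59, 6.04, 3.92, 4.79 and 4.42. Each rose in 3 of 3 replicates. The SE of a fold change, here and below, is its size divided by the square root of the F value of its test. It is an approximation, and a poor one where a group has almost no UMIs. Without the replicate block 901 genes were called.

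The promoters of 3 of these genes are shown because they hold GAS motifs, the sites named for their part in IFNγ responses. Of the 10 genes with the steepest rises, 7 had 1 or 2 windows in the RefSeq promoter table (build GRCm38.p6, 250 bases before to 50 after the start). A GAS motif (TTCNNNGAA, which reads the same on both strands) was found for Igtp, Psmb8 and Irf1, an ISRE core (GAAA, any 2 bases, then GAAA, on either strand) for Igtp, and the cell cycle motif CHR (TTTGAA, on either strand) for Igtp. Over all 32851 windows of this length 8.3% held a GAS motif, 3.44% an ISRE core and 17.9% a CHR. The 120 bases before the start are printed on the plus strand, the sense strand of each gene, with GAS and ISRE core in capitals. They are chr11:58199436-58199555 for Igtp, with GAS 45 to 37 bases and the ISRE core 34 to 25 bases before the start, chr17:34198075-34198194 for Psmb8, with GAS 97 to 89 bases before it, and chr11:53769894-53770013 for Irf1, with GAS 90 to 82 bases before it. A match describes the letters and does not show binding.
Igtp: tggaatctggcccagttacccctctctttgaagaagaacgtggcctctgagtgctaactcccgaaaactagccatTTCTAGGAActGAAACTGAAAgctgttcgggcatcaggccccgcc
Psmb8: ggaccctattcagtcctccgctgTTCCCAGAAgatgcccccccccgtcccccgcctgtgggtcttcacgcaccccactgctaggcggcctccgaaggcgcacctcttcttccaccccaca
Irf1: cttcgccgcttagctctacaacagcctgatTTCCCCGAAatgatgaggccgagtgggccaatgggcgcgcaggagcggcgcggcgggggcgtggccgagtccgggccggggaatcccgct

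Both IFNγ receptor chains fell, and several signaling genes rose. Ifngr1 was at 94.7, 86.0 and 107 CPM in controls and 57.1, 73.8 and 75.0 CPM with the cytokines (log2 fold change -0.46 ± 0.07, adjusted p = 9.88e-05), so the groups did not overlap, and Ifngr2 changed by -0.62 ± 0.08. Il10rb was at 17.65, 21.29 and 25.16 CPM in controls and 16.52, 20.85 and 21.98 CPM with the cytokines, which was not called (adjusted p = 0.52), and Il10ra, the chain that binds IL-10, was listed with 2 UMIs in all cycling crypt cells, both in the Treg + anti-IL-10R group. Irf1 rose from 6.27, 5.93 and 4.03 CPM to 193, 122 and 167 CPM, Irf8 by 2.54 ± 0.19 and Irf9 by 1.82 ± 0.18 (log2). Of the 18 tested genes of the list of receptors, JAK, STAT and IRF factors and their brakes, 8 rose and 3 fell (Ifngr1, Ifngr2 and Irf2, a repressor of interferon responses), with a median log2 fold change of 0.308 beside 0.012 over all genes. Of the brakes of the SOCS family Socs1 rose by 4.43 ± 0.52 and Socs3 by 0.70 ± 0.20, and Cish, at 0.84 CPM or less in every control and cytokine replicate, was not called (-0.67 ± 0.68, adjusted p = 0.499). The STAT3-linked and antimicrobial list, read for IL-10, had 1 of 9 genes called, Bcl3, at 0.45 ± 0.13, near the 16.2% of all tested genes that rose, while Stat3 itself rose by 1.14 ± 0.14. Reg3g, an antimicrobial lectin, had 27.8, 15.7 and 16.1 CPM in controls and 29.4, 7.79 and 13.3 CPM with the cytokines.

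MHC class II had the highest median fold change of the lists, close to that of the interferon-inducible GTPases (8.01 and 7.74). Both medians rest in part on genes below the filter in controls, so their order is not a result. Class I and the immunoproteasome were higher as well. Of 13 listed class II genes 11 passed the filter on low counts, which asks for 0.542 CPM in at least 3 samples of any group. Of these 9 rose and Ifi30, a lysosomal thiol reductase, fell (-0.23 ± 0.05), with a median of 8.01, or 7.3 when H2-DMb2, which had no UMI in controls and was at least 157.0-fold higher, is set at that bound. Of the 9, 5 (Ciita, H2-Aa, H2-DMb1, H2-DMb2 and H2-Eb1) would not have passed the filter on the controls alone, and all 5 passed it without the cytokine samples, through groups with Treg cells. Cd74 was at 1.03, 4.66 and 2.85 CPM in controls and at 1040.2, 1061 and 1595 CPM with the cytokines. Ciita rose by 7.04 ± 0.59, from at most 0.50 CPM in any control replicate to 37.3, 27.5 and 32.6 CPM. Of 19 class I genes 17 rose, with a median of 1.64. They included Nlrc5 (6.91 ± 0.60), which in controls was below the filter and passed it through other groups, the peptide pump Tap1 (4.56 ± 0.39), the light chain B2m (1.495 ± 0.106) and H2-K1, which went from 90.7, 121 and 114 CPM to 273, 283 and 385 CPM. All 6 immunoproteasome genes rose (median 3.12). One of them, Ubd, had 3 UMIs in all control cells and 468 with the cytokines, 379 of these in replicate 1, so it passed the filter only with the cytokine samples, which fixes its direction. Of the constitutive proteasome genes 21 of 31 rose as well, with a list median of 0.205, among them Psma7 at 0.28 ± 0.05.

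Of 18 listed interferon-inducible GTPases, 6 were below the filter on low counts, Gbp11 was not in the annotation, and 11 were tested and rose. Of the 11, 9 would not have passed the filter on the controls alone, and 4 of these (Gbp10, Gbp2b, Gbp6 and Tgtp1) passed it only with the cytokine samples, which fixes their direction. The other 2, Ifi47 and Irgm1, passed it on the controls. These genes differed between replicates in a way that class II did not. Gbp7 was at 54.2, 9.87 and 26.7 CPM with the cytokines and at 0.80 CPM or less in controls. Gbp2, below the filter on low counts, had 183, 6 and 22 UMIs with the cytokines and none in controls, at least 78.3-fold higher, and 183 of these 211 UMIs came from replicate 1. Ly6a, an interferon-inducible surface protein also known from regenerating epithelium, had the same order at 113, 7.29 and 28.2 CPM beside 0.50 CPM or less in controls (log2 fold change 8.14 ± 0.94). Replicate 1 was the highest and replicate 2 the lowest for each of these 3 genes, whereas Cd74 was highest in replicate 3. Of the type I-like interferon-stimulated genes 11 of 24 rose and 3 fell (Samd9l, Oas1g and Oas1a), the others not called. Over all tested genes 16.2% rose and 13.5% fell, so the number of falls is near the background. One that rose, Zbp1, had 2 UMIs in all control cells and 104 with the cytokines, and passed the filter only with the cytokine samples, which fixes its direction. Bst2, which tethers viruses to the membrane, went up by 2.35 ± 0.20 (log2), and Oas1a changed by -0.73 ± 0.22.

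Signals to immune cells went both ways. Of 10 tested checkpoint ligands and chemokines, Icam1, Cxcl10, Cxcl9, Cd274 and Lgals9 rose and Ccl20, Ccl28 and Ccl25 fell. Icam1, Cxcl10 and Cxcl9 passed the filter on low counts only with the cytokine samples, which fixes their direction, and Cd274 was below it in controls. Cd274, which encodes the checkpoint ligand PD-L1, went from 0.75, 0.33 and 0.34 CPM to 11.8, 3.04 and 3.12 CPM (3.60 ± 0.56). Ccl25, the chemokine that draws T cells to the small intestine, went from 177, 171 and 194 CPM to 119, 117 and 142 CPM (-0.53 ± 0.07). Of 19 cell death genes 12 rose, such as the death ligand Tnfsf10 (2.36 ± 0.16), the death receptor Fas (1.70 ± 0.25) and the necroptosis effector Mlkl (1.63 ± 0.18), and 3 fell, among them the survival gene Bcl2 (-0.93 ± 0.14). Over all tested genes 16.2% rose and 13.5% fell, so the number of falls among the cell death genes is near the background. Of 8 p53 targets 1 was called, Phlda3 (-1.08 ± 0.20), beside 13.5% of all tested genes that fell, so the count is near the background. Cdkn1a, the p21 inhibitor, was at 23.8, 26.4 and 20.5 CPM in controls and 29.3, 31.0 and 20.7 CPM with the cytokines.

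**Figure D2:**
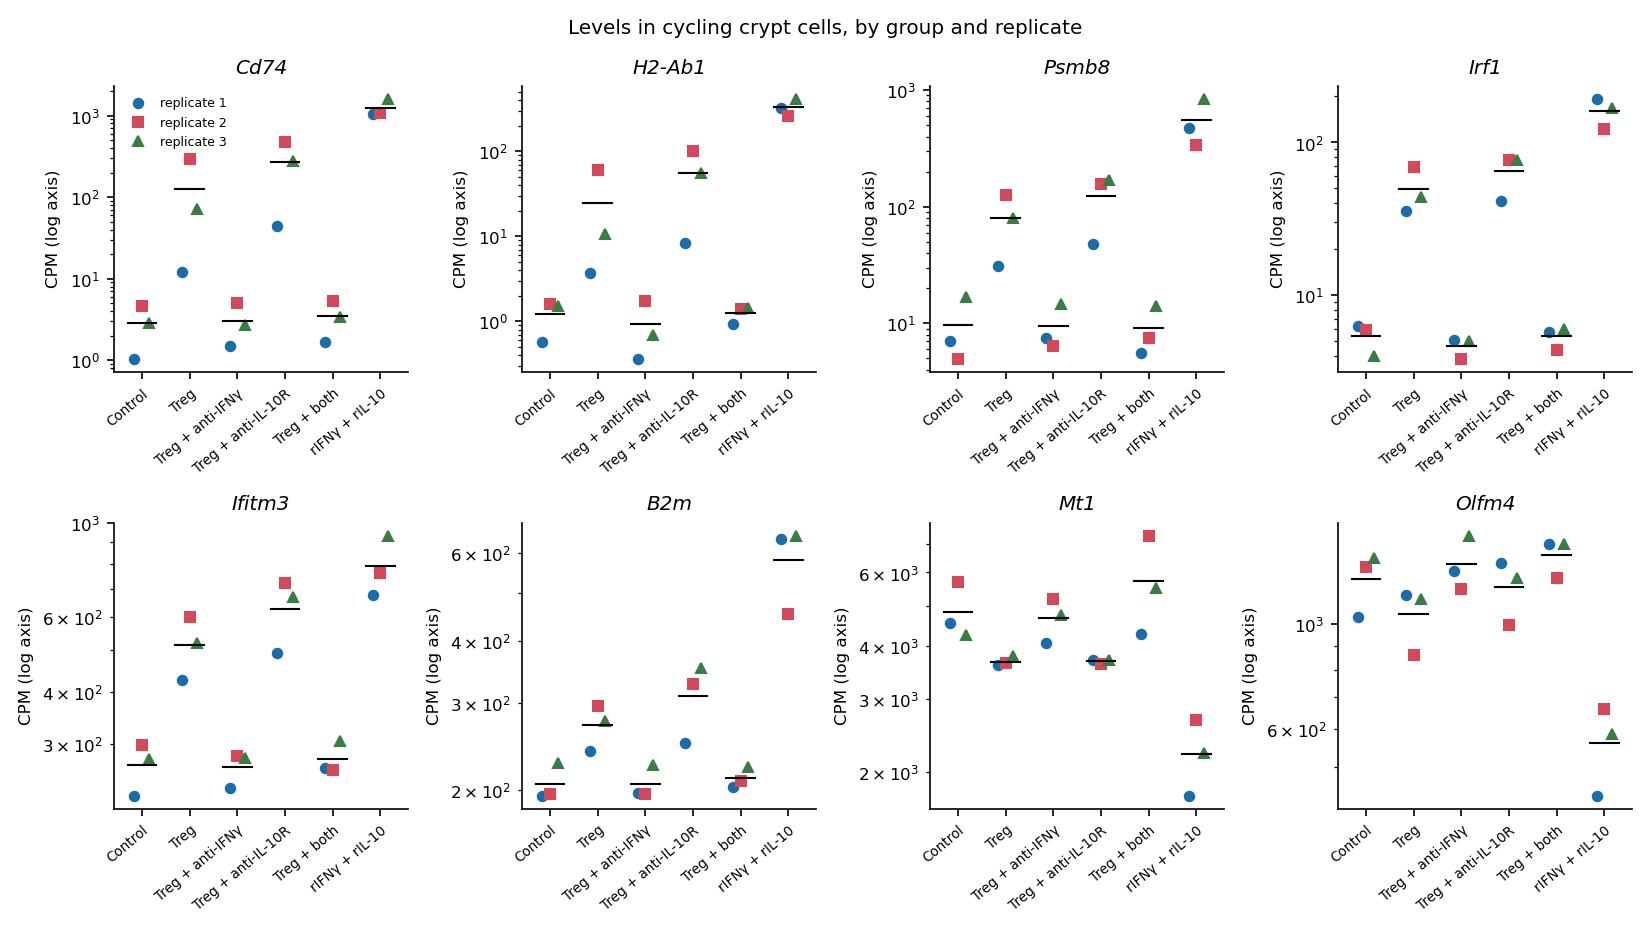
Levels (CPM, log axis) of 8 genes in the summed cycling crypt cells of each group and replicate (points) with the group mean (line). Cd74, H2-Ab1, Psmb8, Irf1, Ifitm3 and B2m are high with rIFNγ + rIL-10, lower but above the control mean with Treg cells alone or with anti-IL-10R, and at control values with anti-IFNγ, and Mt1 and Olfm4 are lowest in the cytokine group, Olfm4 at 435, 663 and 585 CPM.

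In the cytokine group many replication genes were higher and many mitotic genes lower. Of 55 replication and S phase genes 32 rose and Tyms fell (median 0.235). Of 54 genes of G2 and mitosis none rose and 35 fell (median -0.219). Cdc6 and Cdt1, which license replication origins, rose by 0.60 ± 0.18 and 0.47 ± 0.12, and the helicase subunits Mcm2, Mcm4 and Mcm6 by 0.54, 0.47 and 0.39 on the log2 scale. Cyclin B1 (Ccnb1), the mitotic kinase Plk1 and Cenpf changed by -0.25 ± 0.05, -0.27 ± 0.05 and -0.44 ± 0.07. The list excludes Mki67 and Top2a, but its genes vary with those of the rule. Ccnd1, the G1 cyclin that answers growth signals, rose from 117, 114 and 106 CPM to 349, 254 and 289 CPM (1.401 ± 0.111), while Ccnd2 and the inhibitor Cdkn1b fell and the inhibitor Cdkn2b rose (0.99 ± 0.17). Of 17 such G1 genes 7 rose and 2 fell, beside 16.2% and 13.5% of all tested genes, so the number of falls is near the background. Among those that rose, Cdkn2a passed the filter on low counts only with the cytokine samples, which fixes its direction. Among 59 histone genes of S phase 1 rose and 19 fell (median -0.259).

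The crypt stem cell program was lower with the cytokines. None of its 23 tested genes rose and 15 fell (median -0.441). Olfm4 was at 1032, 1319.7 and 1373 CPM in controls and at 435, 663 and 585 CPM with the cytokines, without overlap (-1.14 ± 0.13, adjusted p = 4.05e-06). Sox9, Slc12a2, Smoc2 and the Wnt target Axin2 changed by -0.88 ± 0.09, -0.70 ± 0.10, -0.65 ± 0.11 and -0.50 ± 0.09. Gkn3, of the same list, dropped from 19.8, 16.1 and 29.0 CPM to 0.30, 0.61 and 0.16 CPM (-5.39 ± 0.61). Lgr5 was at 64.8, 88.8 and 48.3 CPM in controls and 47.3, 73.1 and 34.5 CPM with the cytokines, lower in each replicate but not called (-0.37 ± 0.14, adjusted p = 0.0503). Of 10 secretory progenitor and Notch genes Sox4, Notch1, Hes1 and Nrarp fell and none rose, and 3 of 8 genes of the EGF family fell, among them the receptor Egfr (-0.33 ± 0.08). The summed goblet genes outside the rule, of which Spink4 gave 97.53% of UMIs, were at 109 CPM ± 2.40 (SD, n = 3) in controls and 56.1 CPM ± 22.7 in the cytokine group, and their part in these results was not tested. Of 21 absorptive genes 9 rose (Sis, the sucrase, by 0.68 ± 0.20) and 5 fell (Apob, which builds chylomicrons, by -1.61 ± 0.16). Beside the counts of these lists, 16.2% of all tested genes rose and 13.5% fell.

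Growth and metabolism genes moved up by small amounts. Of 29 Myc and ribosome biogenesis genes 15 rose and 2 fell (median 0.176), with Srm, the spermidine synthase, at 0.44 ± 0.08, the nucleolar chaperone Npm1 at 0.30 ± 0.05, and the falls in Mycl and Mycn. Myc itself was at 77.8, 86.1 and 80.5 CPM in controls and 79.4, 92.9 and 97.8 CPM with the cytokines (adjusted p = 0.122). Of 23 genes linked to mTORC1 17 rose and Tfrc, the transferrin receptor, fell (median 0.430). Mthfd2 and Psat1, of mitochondrial folate and serine synthesis, rose by 0.81 ± 0.11 and 0.72 ± 0.11, and the glycolytic Pgk1 by 0.59 ± 0.07. Of 80 ribosomal protein genes 32 rose and 1 fell (median 0.055), and of 13 mitochondrially encoded transcripts 7 fell and none rose (median -0.127), while the median mitochondrial share of a cell's UMIs was 3.89% ± 0.0626 (SD, n = 3) in controls and 3.50% ± 0.224 with the cytokines. These are differences in relative levels. The median of all genes was 0.012, with 16.2% risen and 13.5% fallen.

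Apob, of the absorptive list, was among the steepest falls at 20 CPM or more. Ttr, the thyroxine carrier, went from 27.1, 39.4 and 43.6 CPM to 0.99, 3.69 and 3.61 CPM (-3.60 ± 0.32). Clca4b, the retinol dehydrogenase Adh1, the sulfotransferase Sult1d1, Apob and the muscarinic receptor Chrm3 came next at -2.18, -1.76, -1.65, -1.61 and -1.60, followed by Ctsh, Cttnbp2, Ifi27l2b and Slit2 down to -1.41. The metallothioneins, which bind zinc and copper, were lower too. Mt1 went from 4551, 5701 and 4247 CPM to 1759.87, 2669.79 and 2225 CPM (-1.13 ± 0.11), and Mt2 changed by -1.401 ± 0.118. Immediate early genes, which respond to growth signals but also to cell isolation, were lower, with 7 of 12 fallen and Ier3 risen. Fos was at 209.6, 215.4 and 260.0 CPM in controls and 41.6, 102 and 126 CPM with the cytokines. The 13 genes of that list, of which Hspa8 gave 61.32% of UMIs, summed to 2141 CPM ± 36.8 (SD, n = 3) in controls and 1793 CPM ± 110.0 with the cytokines, and their part in the other results was not tested.

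**Figure D3:**
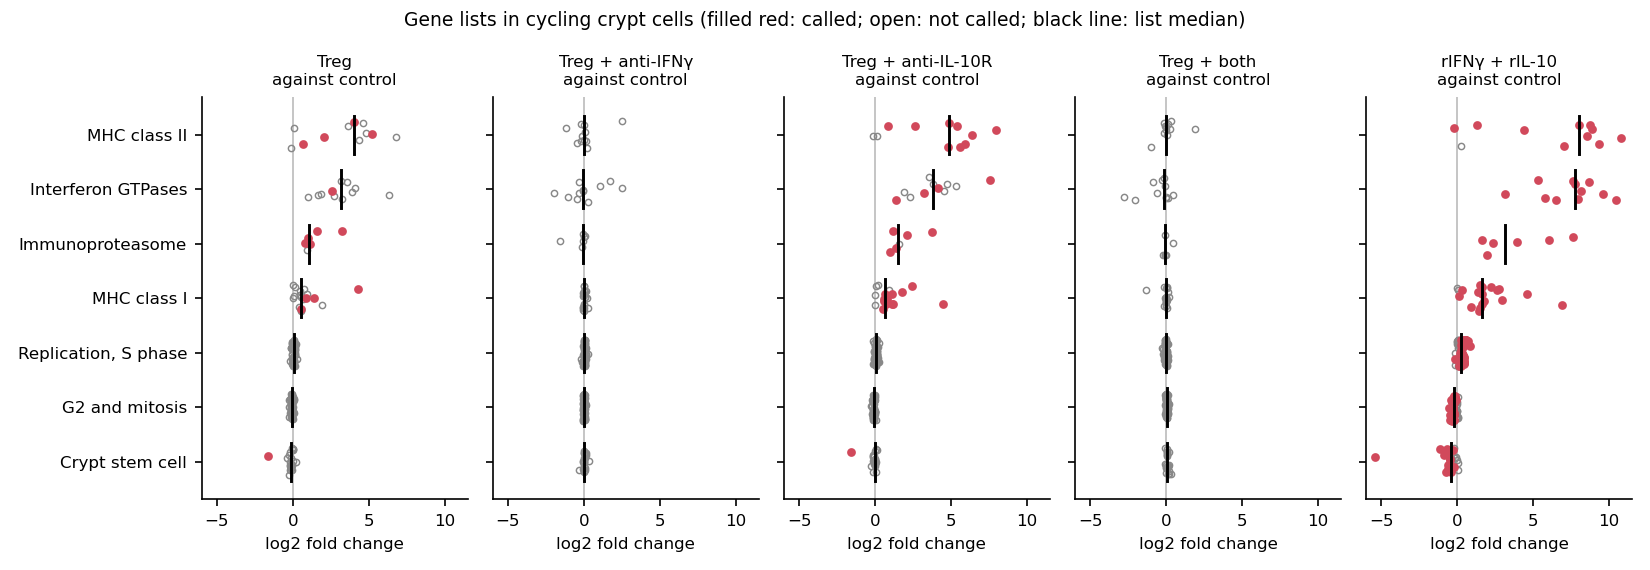
Log2 fold change against control of each tested gene (points) of 7 lists in the 5 treated groups. Filled points were called at an adjusted p below 0.05, open points were not, and black lines are list medians. Class II, GTPases, immunoproteasome and class I are to the right with Treg cells, with anti-IL-10R and, furthest, with rIFNγ + rIL-10, and around 0 with anti-IFNγ or both antibodies, where no gene was called.

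With Treg cells alone 43 genes rose (0.324% of those tested) and 2 fell, Gkn3 and Wwp1 (0.0151%). Cd74 was at 12.2, 289 and 70.7 CPM, above every control replicate (5.18 ± 0.79, adjusted p = 0.00304). Irf1 was at 35.6, 69.0 and 43.7 CPM (3.10 ± 0.31, adjusted p = 2.17e-05). Ifitm3, a membrane protein that blocks virus entry, went from 227, 299.7 and 278 CPM to 427, 599 and 521 CPM (0.94 ± 0.08, adjusted p = 4.57e-06), with no overlap between the groups. Ciita and Nlrc5, both below the filter in controls, rose by 4.04 ± 0.78 and 4.31 ± 0.78, Psmb8, Psmb9 and Psmb10 by 3.204, 1.619 and 1.158, and the proteasome activators Psme1 and Psme2 by 0.99 and 0.83. H2-DMa and Tnfsf10 rose by 2.03 ± 0.38 and 0.84 ± 0.17.

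By list, 4 of 11 class II genes, 4 of 19 class I genes, 5 of 6 immunoproteasome genes, 1 of 11 GTPases (Ifi47) and 3 of 19 cell death genes (Mlkl, Tnfsf10 and Casp1) rose. The class II chains were higher in every replicate, H2-Ab1 at 3.70, 59.95 and 10.7 CPM beside 0.57, 1.59 and 1.51 CPM in controls, but they missed the threshold (adjusted p = 0.0666). Replicate 2 was the highest and replicate 1 the lowest for class II, Irf1, Psmb8 and Ifitm3 alike. Controls had the same order for Ifitm3 (227, 299.7 and 278 CPM), Cd74 and H2-Ab1, but not for Irf1 or Psmb8. None of the genes of replication or of G2 and mitosis was called, and of the stem cell genes Gkn3 fell, to 12.0, 1.53 and 8.60 CPM (-1.63 ± 0.34). Olfm4 was at 1152, 862 and 1125 CPM, overlapping the controls (-0.25 ± 0.13, adjusted p = 0.634), and Ccnd1 at 135, 172 and 129.99 CPM beside 117, 114 and 106 CPM (0.37 ± 0.11, adjusted p = 0.237). No Myc, mTORC1 or ribosomal protein gene was called. By sign alone, which is no call, 50.7% of all genes were above 0, with a median of 0.002. Above 0 were 22 of 23 mTORC1-linked genes (median 0.186), 26 of 29 Myc and ribosome biogenesis genes (0.064), 36 of 55 replication genes (0.044), 34 of 80 ribosomal protein genes (-0.002), 6 of 54 genes of G2 and mitosis (-0.063) and 4 of 23 stem cell genes (-0.106). With anti-IFNγ, where no gene was called against control, 40 of 55 replication genes were above 0 (median 0.027). There the tally was 11 of 23 for the mTORC1-linked and 16 of 29 for the Myc and ribosome biogenesis genes. For Treg cells alone 9 genes were called without the block and 4 without replicate 3. Of the 15 named genes that were called, 11 lost the call without the block and 13 without replicate 3, Cd74, Ciita and Psmb8 in both and Nlrc5 in the latter, while Irf1 and Ifitm3 kept it in both.

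In the groups with anti-IFNγ these genes were at control values. With Treg cells and anti-IFNγ 0 genes (0.0%) were called against control by edgeR or by DESeq2, and 298 had an unadjusted p under 0.05. With both antibodies the count was again 0 (0.0%) by either tool, with 522 at an unadjusted p under 0.05. Cd74 was at 1.49, 5.03 and 2.67 CPM with anti-IFNγ and 1.67, 5.34 and 3.42 CPM with both, close to the 1.03, 4.66 and 2.85 CPM of controls. Irf1 was at 5.12, 3.82 and 5.05 CPM and at 5.79, 4.40 and 6.02 CPM, in the range of the controls or just outside it. For Ifitm3 the values were 237, 282 and 278 CPM with anti-IFNγ, and 263, 261 and 306.15 CPM with both.

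Compared directly with Treg cells alone, the group with both antibodies had 60 genes lower (0.452%) and 23 higher (0.173%). Cd74, H2-Eb1, H2-Aa and H2-Ab1 changed by -4.87 ± 0.74, -5.01 ± 1.08, -4.71 ± 0.99 and -4.26 ± 0.94, Irf1 by -3.22 ± 0.30 and Psmb8 by -3.198 ± 0.428. Of the class II genes 7 of 11 were lower and of the immunoproteasome 5 of 6. Genes that were higher with both antibodies included the metallothioneins. Mt1 was at 4285, 7353 and 5499.87 CPM beside 3601, 3639 and 3791 CPM with Treg cells alone (0.61 ± 0.10, adjusted p = 0.00662), with no overlap, and Mt2 rose by 0.66 ± 0.12. S100a6, Gsta4, Bcl2 and Clca3b rose by 0.77, 0.70, 0.54 and 0.53, and Gkn3 by 1.69 ± 0.33. The glycolytic genes Pgk1 and Ldha were lower. By sign alone, 0 of the 23 mTORC1-linked genes were above 0 (median -0.172), beside 50.1% of all genes. This tally shares the Treg replicates with the tally of Treg cells against control. Without the block 5 genes were called and without replicate 3, 3.

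With anti-IFNγ against Treg cells alone, a comparison added after the others were seen, 42 genes were lower (0.316%) and 2 higher, Tstd1 and Sycn (0.0151%). Cd74 changed by -5.02 ± 0.74, H2-Aa by -5.05 ± 1.00, Irf1 by -3.44 ± 0.30 and Psmb8 by -3.13 ± 0.42. Both comparisons share the Treg replicates, so these values stand beside those for both antibodies and are not independent of them. Mt1 was at 4065, 5188 and 4762 CPM, above Treg cells alone in each replicate but not called (0.33 ± 0.10, adjusted p = 0.284). Without the block 8 genes were called and without replicate 3, 7.

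With anti-IL-10R the antigen presentation genes were again above controls. Against control 120 genes rose (0.903%) and 30 fell (0.226%), 2 of these being genes of the rule (Top2a and Fabp1). Cd74 was at 44.2, 477 and 279 CPM (6.40 ± 0.76, adjusted p = 7.61e-05), Irf1 at 41.5, 76.5 and 76.7 CPM (3.44 ± 0.30) and Ifitm3 at 493, 721 and 669.7 CPM. Of 11 class II genes 9 rose, of 19 class I genes 12, of 6 immunoproteasome genes 5, of 11 GTPases 4, and Ccnd1 rose to 136, 188 and 152 CPM (0.49 ± 0.11, adjusted p = 0.0309). Among the named genes that fell, Ttr changed by -0.90 ± 0.22, Igfbp4, Apob and Tstd1 by -0.64, -0.59 and -0.59, and Ccl25 by -0.30 ± 0.07. No gene of replication or of G2 and mitosis was called and Gkn3 was the only stem cell gene (-1.58 ± 0.34). Without the 4 cells that carried T cell UMIs 141 genes were called, all 141 among the 150. The log2 fold changes were then 6.41 for Cd74, 3.43 for Irf1 and 0.50 for Ccnd1, all still called, while Ttr at -0.89 was not. Without the block 25 genes were called and without replicate 3, 10.

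Most of these values lay above those of Treg cells alone, but the difference was not called. Against Treg cells alone, also a comparison added later, 1 gene was called (0.00753%), Myo1h, which was lower, and 355 had an unadjusted p under 0.05. DESeq2 called 0. Cd74 was higher with anti-IL-10R in 3 of 3 replicates, by 1.22 ± 0.45 (adjusted p = 1.0), H2-Ab1 by 1.05 ± 0.50, and Irf1 by 0.34 ± 0.22. Without the 4 T cell-bearing cells the count was again 1.

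The response was uneven between cells. A cell was called class II-high when, thinned to 10000 UMIs, it had more than 1 UMI of H2-Aa, H2-Ab1, H2-Eb1 and Cd74, the 99th percentile of control cells. With rIFNγ + rIL-10 100%, 99.75% and 100% of cycling crypt cells were class II-high. With Treg cells the shares were 5.94%, 57.9% and 19.1%, and with anti-IL-10R 12.9%, 77.5% and 47.2%, so in both groups replicate 2 was the highest and replicate 1 the lowest. With anti-IFNγ the shares were 0.269%, 0.415% and 0%, and with both antibodies 0%, 0.25% and 0%, where 0 of 146, 337 and 170 cells allow up to 2.05%, 0.89% and 1.76%. Controls, which set the threshold, were at 0.353%, 0.27% and 0% (0 of 116 cells, which allows 2.59%). The limits cover counting error only.

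The mean share of class II-high cells was 27.6% ± 27.0 (SD, n = 3) with Treg cells and 0.0833% ± 0.144 with both antibodies. The difference of -27.6 points and that of 72.3 points between the cytokine and Treg groups each had no overlap and p = 0.1 in a two-sided exact permutation test, the smallest p that 3 against 3 allows (adjusted p = 0.1). Without the 4 T cell-bearing cells the mean with anti-IL-10R was 46.2% in place of 45.9%. Without replicate 2 the means were 12.5% with Treg cells and 30.0% with anti-IL-10R, and without thinning the Treg mean was 43.2%. Since the groups were pooled in each library, the control cells give the level that free RNA could reach, and 3.64% of them had a Cd74 UMI at 10000 UMIs, at a median depth of 51260.0 UMIs, beside 36.6% with Treg cells, at 52880.0. The median cell had 0, 2.51 and 0.194 class II UMIs per 10000 with Treg cells, and 19.1, 17.1 and 23.4 with the cytokines. Nearly all cytokine cells were high, with the 10th percentile at 12.9, 9.89 and 16.2.

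**Figure D4:**
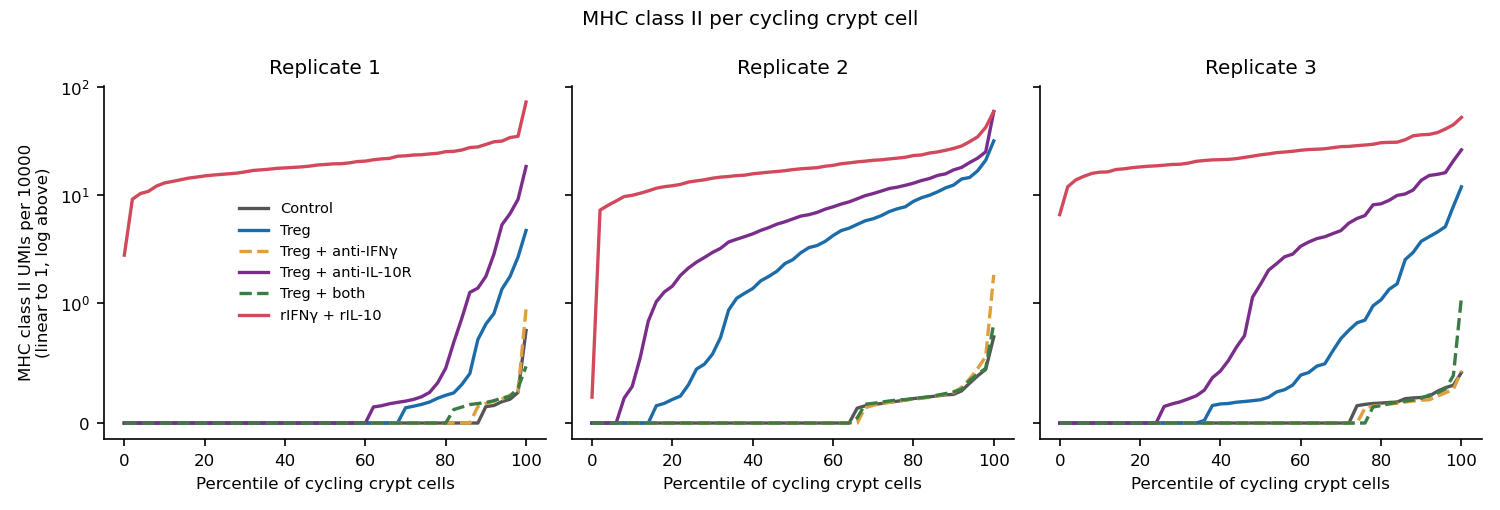
MHC class II UMIs (H2-Aa, H2-Ab1, H2-Eb1 and Cd74) per 10000 UMIs at each percentile of the cycling crypt cells, per replicate (y axis linear to 1 and logarithmic above). The cytokine group lies above all others up to percentile 98. At percentile 100 replicate 2 with anti-IL-10R (58.72) is above cytokine replicate 3 (51.94). The Treg and anti-IL-10R groups rise in a part of their cells that differs between replicates. Control, anti-IFNγ and both antibodies lie together near 0.

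The response was then compared with that of related cells of the same organoids, by the difference between fold changes. The comparison cells were 748 Fabp1-high cycling cells, further along the absorptive path, and 2757 Fabp1-low cells below the cycling threshold. For Treg cells against control no gene was called as different from either set (0.0% of 11616 and 0.0% of 12421 genes by edgeR, with 629 and 419 at an unadjusted p under 0.05). The fit did not pair the sets of one group and replicate, though they came from the same organoids. Spread between cultures therefore stayed in its error, and a lack of calls does not show equal responses. For rIFNγ + rIL-10 28 genes differed from Fabp1-high cycling cells (0.241%) and 35 from the cells below the threshold (0.282%). None of these genes belonged to the class II, class I, immunoproteasome, GTPase or type I-like lists. The fold change of Cd74 was 9.31 in the cycling crypt cells and 8.43 in Fabp1-high cycling cells, and in the other fit 9.34 and 8.81 below the threshold. The differences of 0.88 ± 2.13 and 0.53 ± 1.61 (SE, approximate as above) were not called and have wide errors.

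Against Fabp1-high cycling cells, Apob fell by 1.63 in the cycling crypt cells and was at 0.30 in the others, a difference of -1.93 ± 0.29 (adjusted p = 0.0021). Dab1, Specc1, Prlr, the prolactin receptor, and Tstd1 also had the lower fold change in the cycling crypt cells, by -1.53, -0.93, -0.91 and -0.81. The reverse held for Qtrt1, Galnt3, Dmbt1, the ribosome biogenesis gene Nop16 and Rbmxl1, by 1.30, 1.17, 0.88, 0.81 and 0.77. Olfm4 differed by -2.42 ± 0.69 without being called (adjusted p = 0.133). In the other comparison its difference was 0.47 ± 0.25, also not called. Its fold change there was -1.142 in the cycling crypt cells and -1.615 in the cells below the threshold. Against the cells below the threshold, Sis rose by 0.67 in the cycling crypt cells and by 2.63 in the others, a difference of -1.97 ± 0.39. Apob, Cda and Clec2e were lower by -1.67, -0.94 and -0.80. The replication helicase gene Mcm6 rose by 0.38 and was at -0.24 in the others (0.62 ± 0.14), and Rgcc, Cdk6, Rrp1b and Polr3d had differences of 0.83, 0.67, 0.64 and 0.60. Mcm6 and Cdk6 vary with the proliferation that separates these sets. Without replicate 1 or without replicate 3 the count was 0 in both comparisons, and without replicate 2 it was 57 and 62. The Fabp1-high cycling cells of the cytokine group numbered 7 to 25 per replicate, 5.79% ± 0.316 (SD, n = 3) of cycling cells beside 15.9% ± 1.63 in controls. Since the sets are split at a Fabp1 threshold, cells that cross it and a change within cells cannot be told apart.

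**Figure D5:**
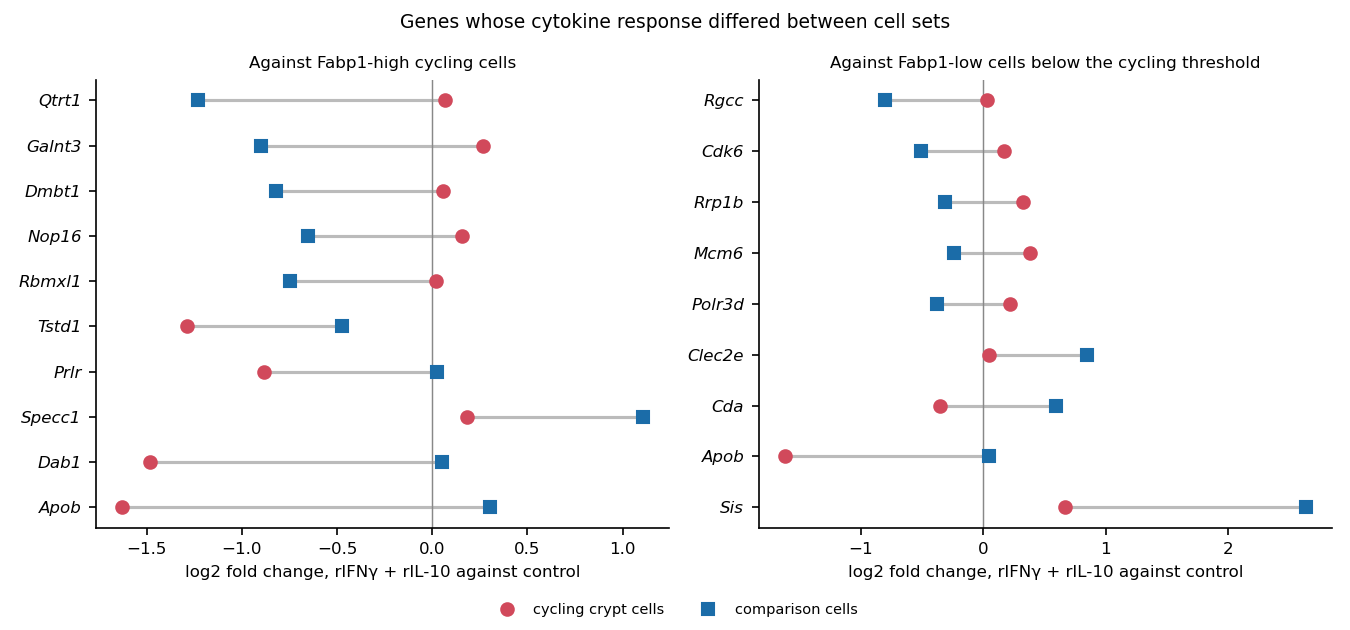
Log2 fold change of rIFNγ + rIL-10 against control in cycling crypt cells (circles) and in comparison cells (squares) for named genes with a called difference, 10 against Fabp1-high cycling cells on the left and 9 against Fabp1-low cells below the cycling threshold on the right. The widest gaps are those of Apob on the left (-1.63 and 0.30) and Sis on the right (0.67 and 2.63).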

How the data were processed

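Small intestinal organoid cells of 6 hashed groups were measured by droplet single-cell RNA sequencing (10x). Cell Ranger 7.0.0 with a GRCm38 reference was run by the authors, who deposited, for each library, whole UMI counts of genes and hashtags in the barcodes it called as cells. The authors used Seurat 4.0.5, per the submitters' processing notes. A library that the authors excluded was not used here. Hashtags were called with HTODemux (Seurat 5.3.0, CLR, quantile 0.99): of 35985 barcodes 24320 were singlets, 3387 doublets and 8278 without a hashtag. The limits were 10000 to 90000 UMIs, 3000 to 10000 genes and a mitochondrial share of no more than 8.5%, which 11911 cells met. Hashtag doublets were removed, and doublets within a group, scored against simulated ones with scanpy 1.11.5, only in an alternative.

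Counts were summed per group and replicate, filtered by filterByExpr, scaled by TMM and tested with edgeR 4.0.16 (quasi-likelihood, replicate block, Benjamini-Hochberg adjustment). Levels of named genes by replicate are TMM-scaled CPM, while summed lists, control levels by cell set and levels by cell cycle lean are plain CPM. Differences between cell sets were interaction contrasts with the replicate as a block within each set, which did not pair the sets of one culture. Samples with the same replicate number deviated together (mean r = 0.426, lowest 0.105 of 45 pairs), and the labels give the numbers. Deviations from a group mean cancel within the group, so the mean of -0.211 for different numbers follows from this and is no separate contrast. Shares were compared by exact permutation tests. On simulated data for cytokines against control with 13051 genes, 92% of 100 genes changed 2-fold and 100% of 100 changed 4-fold were recovered, with 16 false among 208 calls. The simulation gave every gene the same spread and no replicate effect, and changed only genes with many UMIs. These rates therefore do not give the sensitivity of the test on the real data.

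The members, gene lists, tests and alternatives were chosen with earlier results of these data known. Named genes were a fixed set, the 10 steepest rises and falls of each comparison among called genes with a mean of at least 20 CPM and one direction in 3 of 3 replicates outside the rule, the 2 highest of each list, and 5 per direction for interactions. Some genes under this rule are not reported here. Other list members are named as examples, chosen after their values were seen. The comparisons of single antibodies with Treg cells, the paired test of the shares, and the alternative without T cell-bearing cells (at least 2 UMIs), were added after seeing the data. Alternatives were DESeq2 1.42.0, relative log expression factors, no filter, no block, equal cell numbers, a cycling threshold of 6, no high doublet scores, no thinning and each replicate left out. P-values measure the spread between the 3 replicates.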

Additional observations from a re-analysis of the deposited data

Results flagged for a closer look

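The following genes had a response to rIFNγ + rIL-10 in cycling crypt cells that differed from the response of a comparison set of the same organoids, by the interaction contrast of edgeR with Benjamini-Hochberg adjustment. Against Fabp1-high cycling cells the difference in log2 fold change was -1.93 for Apob, -1.53 for Dab1, -0.93 for Specc1, -0.91 for Prlr and -0.81 for Tstd1. In the other direction it was 0.77 for Rbmxl1, 0.81 for Nop16, 0.88 for Dmbt1, 1.17 for Galnt3 and 1.30 for Qtrt1. Against Fabp1-low cells below the cycling threshold it was -1.97 for Sis, -1.67 for Apob, -0.94 for Cda and -0.80 for Clec2e. Positive differences were 0.60 for Polr3d, 0.62 for Mcm6, 0.64 for Rrp1b, 0.67 for Cdk6 and 0.83 for Rgcc. Each had the same sign in 3 of 3 replicates, and Apob appears in both comparisons. These comparisons share the cycling crypt cells, and no gene was called in either without replicate 1 or without replicate 3. The sets are split at thresholds in Fabp1 and in Mki67 and Top2a, so cells that cross a threshold with the treatment and a change within cells cannot be told apart in these differences, those of Apob and other absorptive genes among them.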

How the results depend on the processing

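No named gene that was called changed sign under the alternatives run. Some differences from control in the shares of cycling and of G2/M-leaning cells, none of which passed its test, changed sign when a replicate was left out, whereas the share of cycling cells stayed above control with anti-IFNγ and with anti-IL-10R. Without the replicate block the number of called genes was 901 for cytokines, 9 for Treg cells and 25 for anti-IL-10R against control, and against Treg cells 5 for both antibodies, 8 for anti-IFNγ and 0 for anti-IL-10R. No filter on low counts gave 371 for Treg cells, 9 for anti-IFNγ, 629 for anti-IL-10R and 33 for both antibodies against control, and 496, 387 and 94 for both antibodies, anti-IFNγ and anti-IL-10R against Treg cells. Leaving out 1 replicate at a time, the counts ran from 2196 to 3635 for cytokines, 4 to 163 for Treg cells, 10 to 484 for anti-IL-10R, 3 to 261 for both antibodies against Treg cells, 7 to 136 for anti-IFNγ against Treg cells, 0 to 24 for anti-IL-10R against Treg cells, and 0 to 57 and 0 to 62 for the differences from Fabp1-high cycling cells and from the cells below the threshold. Without replicate 3 the counts of the Treg groups were at their lowest, and for cytokines that was so without replicate 1. Equal cell numbers (116 per group and replicate) gave 27 for Treg cells, 99 for anti-IL-10R, 46 for both antibodies against Treg cells and 0 for anti-IL-10R against Treg cells, where DESeq2 and a cycling threshold of 6 gave 0 too. Without thinning the class II-high share was 1.80% with anti-IFNγ and 1.89% with both antibodies. The causes were not tested. The other alternatives left each count within 1.5 times the main one. Counts of 7 to 25 cells limit the Fabp1-high comparison.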

Other observations

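Split by cell cycle lean, cycling crypt cells had similar mean levels of Cd74 in both parts. Within replicates, Cd74 with Treg cells was higher in S-leaning cells each time, at 21.3, 350 and 73.1 beside 11.3, 271 and 64.2 CPM. With the cytokines the order differed between replicates, and neither difference was tested. With rIFNγ + rIL-10 Cd74 was at 1174 CPM ± 171 (SD, n = 3) in S-leaning and 1184 CPM ± 218 in G2/M-leaning cells, and with Treg cells at 148 CPM ± 177 and 116 CPM ± 137. Olfm4 in the cytokine group was at 511 CPM ± 169 and 542 CPM ± 149.9, beside 1445 CPM ± 132 and 1202 CPM ± 108 in controls, so it was lower in both parts. Areg, an EGF receptor ligand of the regenerative list, was at 111, 65.4 and 58.4 CPM with the cytokines beside 13.45, 20.1 and 11.7 CPM in controls (log2 fold change 2.48 ± 0.41, edgeR adjusted p = 0.000127). In the same list Clu, a marker of revival stem cells, fell (-2.34 ± 0.52), and of its 9 tested genes 3 rose and 2 fell, beside 16.2% and 13.5% of all tested genes.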
